A study of Mus musculus with 6 samples.

Results

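The 10 genes described here are AXL, NGFR, SOX9, EGFR, PDGFRB, TNC, WNT5A, NT5E, NES and TGFBI, genes that melanoma cells of the undifferentiated or invasive state are known to express. They were chosen by their human Ensembl identifiers, given as a list, by a rule that uses no measured value, though the list was drawn up with earlier results of these data known. All 10 were found among the 14202 Ensembl identifiers in the data. The tumours grew from A375, an established melanoma cell line of human origin that the labels give as wild type (WT), under the skin of BALB/c nude mice. Mice received ZLD1039, an inhibitor of the histone methyltransferase EZH2, orally at 100 mg/kg every day, or the vehicle alone, and tumours of day 27 were profiled by RNA-seq, 3 under ZLD1039 and 3 under vehicle. All 6 tumours thus stem from 1 cell line, and nude mice lack mature T cells but keep their own vessels, fibroblasts and other immune cells. The labels give 5 mice in each group and do not tie each sequenced tumour to a mouse, so each p-value reflects only how much these tumours varied.

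Melanoma cells move along a range of states, from pigmented cells driven by the melanocyte programme to undifferentiated cells that have lost it. Cells at the undifferentiated end carry growth factor and neurotrophin receptors such as AXL, EGFR, PDGFRB and NGFR, secrete WNT5A and matrix proteins such as tenascin-C, and are known for invasion and for tolerance of BRAF inhibitors. EZH2 places the repressive methyl mark on a lysine of histone H3, and its inhibition is known to release some silenced genes.

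No difference between the treatments passed the test for any of the 10 genes, and the intervals of the low genes are wide. Transcript abundance at each gene was taken in FPKM (fragments scaled by transcript length and by mapped fragments), and the groups were compared with limma on log2(FPKM + 1), a scale that understates changes of low genes. Of the 10 genes, 0 passed an adjusted p of 0.05, a threshold that 0.0185% of the 10834 loci tested passed, and 0 had an unadjusted p under 0.05, as 4.94% of all loci did. The log2 change was below 0 for 8 of the 10 genes, where 47.2% of all loci were below 0, and its median was -0.19 over the 10 genes and 0.02 over all loci. SOX9 and NES were the 2 genes with every ZLD1039 tumour below every vehicle tumour, a separation seen in that direction at 5.2% of all loci, and 0 genes had the opposite one, seen at 5.75% of all loci (10.9% in either direction).

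ZLD1039 tumour 2 stood apart from the other tumours over the whole data set. On principal component 1 of the loci tested, with 34.2% of the variance, its score was 51.9, against scores of -13.3 to -4.02 for the rest. It listed 12114 loci, against 12508 to 12758 in the others. Among the 10 genes, 7 had their lowest value of the 6 tumours in it, as did 24.3% of all loci. Without it the median log2 change of the 10 genes was -0.04, and the change without it is given below for each gene. How many fragments were sequenced per tumour is unknown, which leaves counting error out of every value here.

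**Figure D1:**
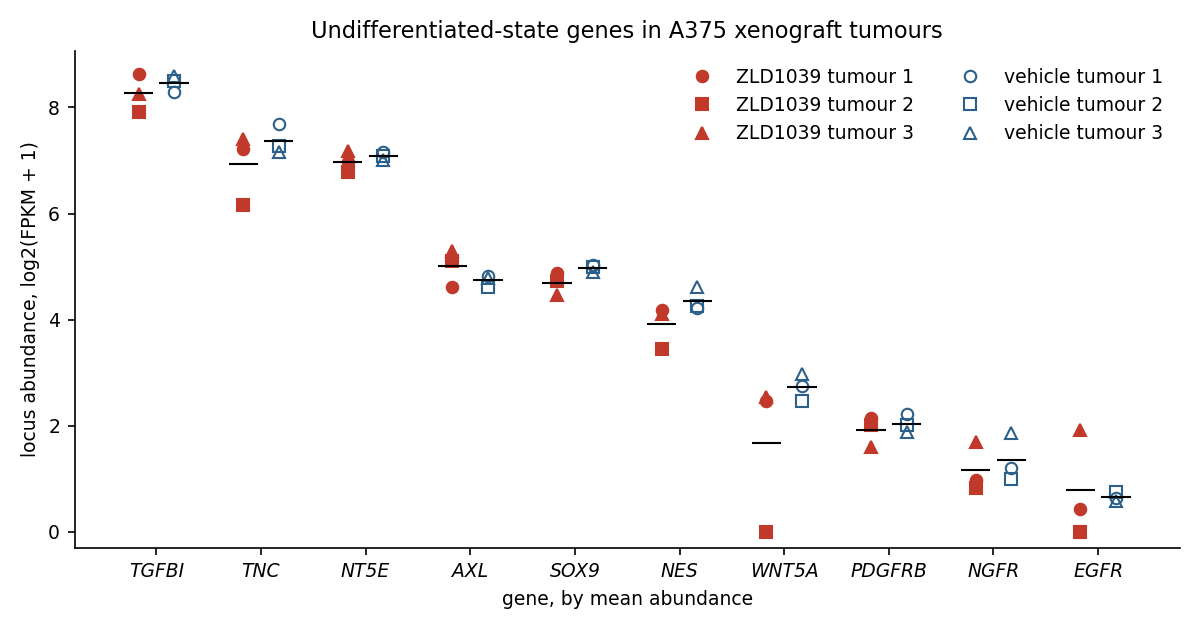
Abundance of each gene in each tumour, as log2(FPKM + 1), with ZLD1039 tumours as filled red symbols and vehicle tumours as open blue symbols beside them. Bars are group means, and genes run from the highest mean (TGFBI, 333 FPKM) to the lowest (EGFR, 0.816 FPKM). The symbols of both groups intermix for all genes but SOX9 and NES.

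The genes spanned a wide range of abundance, shown in the plot of abundance by tumour. TGFBI was the highest, with a mean of 333 FPKM over the 6 tumours, and its range did not overlap that of TNC, the next one. TNC (148 FPKM) and NT5E (130 FPKM) could not be ordered, since their ranges overlapped. AXL (28.8 FPKM), SOX9 (27.8 FPKM) and NES (17.04 FPKM) formed the next group, each overlapping its neighbour in the order. WNT5A, PDGFRB, NGFR and EGFR followed, with means of 4.42, 2.98, 1.49 and 0.816 FPKM, again with ranges that overlapped from neighbour to neighbour. In any tumour at most 1.05% of listed loci were higher than TGFBI, at most 4.98% higher than TNC and at most 3.01% higher than NT5E. In the 5 tumours that listed EGFR, 68.2% to 93.3% of listed loci were higher than it. The matrix proteins TGFBI and TNC and the surface enzyme NT5E thus stood at the top, and the ligand WNT5A and the receptors other than AXL at the bottom.

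AXL, the receptor tyrosine kinase for the ligand GAS6 (ENSG00000167601, chromosome 19, 41725108 to 41767671, plus strand), was the most abundant receptor. It had 23.7, 33.2 and 38.5 FPKM in ZLD1039 tumours 1, 2 and 3, against 27.2, 23.5 and 26.7 FPKM in the vehicle tumours. ZLD1039 tumours 2 and 3 were above all vehicle tumours, and ZLD1039 tumour 1 lay among them, so the groups overlapped. The means were 31.8 ± 7.50 FPKM under ZLD1039 and 25.8 ± 2.02 FPKM under vehicle (SD, n = 3 each). The log2 change was 0.27 (SE 0.20, 95% interval -0.21 to 0.74, limma adjusted p = 0.881). It was 0.46 without ZLD1039 tumour 1, 0.22 without ZLD1039 tumour 2 and 0.12 without ZLD1039 tumour 3. AXL and EGFR were the 2 genes with a change above 0.

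NGFR, the low-affinity neurotrophin receptor and a marker of neural crest-like melanoma cells (ENSG00000064300, chromosome 17, 47572655 to 47592379, plus strand), was low in all tumours. It had 0.979, 0.775 and 2.23 FPKM in the ZLD1039 tumours and 1.32, 1.01 and 2.66 FPKM in the vehicle tumours. The third tumour of each group was the highest of its group, and the groups overlapped. The log2 change was -0.20 (SE 0.35, 95% interval -1.0 to 0.61, limma adjusted p = 0.931), and it was -0.03 without ZLD1039 tumour 2.

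EGFR, the receptor for epidermal growth factor (ENSG00000146648, chromosome 7, 55086714 to 55214433, plus strand), was the lowest of the 10 genes. It was listed at 0.357 and 2.81 FPKM in ZLD1039 tumours 1 and 3 and was not listed in ZLD1039 tumour 2, against 0.553, 0.684 and 0.496 FPKM in the vehicle tumours. The ZLD1039 group thus held both the highest and the lowest value, with ZLD1039 tumour 3 above all other tumours. EGFR entered the test only through the mean of the ZLD1039 group, which that tumour raised above 1 FPKM. The log2 change of 0.13 (SE 0.51, 95% interval -1.04 to 1.31, limma adjusted p = 0.964) took the unlisted tumour as 0. It was 0.53 without ZLD1039 tumour 2 and -0.44 without ZLD1039 tumour 3, so no direction can be given.

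PDGFRB, the receptor for platelet-derived growth factor B and also a marker of pericytes and fibroblasts (ENSG00000113721, chromosome 5, 149501443 to 149535423, minus strand), was low and even. It had 3.46, 3.02 and 2.02 FPKM in the ZLD1039 tumours, against 3.67, 3.06 and 2.68 FPKM in the vehicle tumours. Only ZLD1039 tumour 3 was below all vehicle tumours, and the groups overlapped. The log2 change was -0.12 (SE 0.22, 95% interval -0.64 to 0.40, limma adjusted p = 0.931). It was -0.17 without ZLD1039 tumour 2 and 0.04 without ZLD1039 tumour 3. Neither EGFR nor PDGFRB had a listed transcript end, so their abundances rest on starts and inner events.

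WNT5A, the secreted ligand of non-canonical Wnt signalling (ENSG00000114251, chromosome 3, 55499743 to 55523071, minus strand), had the widest difference between the group values. It was listed at 4.55 and 4.81 FPKM in ZLD1039 tumours 1 and 3 and was not listed in ZLD1039 tumour 2, against 5.77, 4.54 and 6.89 FPKM in the vehicle tumours. The listed ZLD1039 values lay within the lower part of the vehicle range. With the unlisted tumour as 0 the log2 change was -1.07 (SE 0.63, 95% interval -2.52 to 0.39, limma adjusted p = 0.881), and without that tumour it was -0.23. An unlisted locus need not be silent: 176 of the 10447 loci listed in all the other 5 tumours, or 1.68%, were missing from ZLD1039 tumour 2.

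SOX9, a transcription factor of neural crest and cartilage cells (ENSG00000125398, chromosome 17, 70117161 to 70122561, plus strand), separated the groups. It had 28.3, 25.7 and 21.1 FPKM in the ZLD1039 tumours, against 31.7, 31.0 and 28.7 FPKM in the vehicle tumours. Every ZLD1039 tumour was below every vehicle tumour, with ZLD1039 tumour 1 just under the lowest of them. The means were 25.0 ± 3.66 FPKM under ZLD1039 and 30.5 ± 1.57 FPKM under vehicle (SD, n = 3 each). The log2 change of -0.28 did not pass the test (SE 0.17, 95% interval -0.67 to 0.10, limma adjusted p = 0.881). It was -0.31 without ZLD1039 tumour 2 and -0.17 without ZLD1039 tumour 3, the lowest tumour.

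NES, which codes for nestin, an intermediate filament protein of neural progenitor cells (ENSG00000132688, chromosome 1, 156638555 to 156647189, minus strand), was the other gene whose groups did not overlap. It had 17.1, 9.94 and 16.3 FPKM in the ZLD1039 tumours, against 17.5, 18.03 and 23.4 FPKM in the vehicle tumours. ZLD1039 tumour 2 was far below the rest, ZLD1039 tumours 1 and 3 lay just under vehicle tumours 1 and 2, and vehicle tumour 3 was the highest. The means were 14.4 ± 3.91 FPKM under ZLD1039 and 19.7 ± 3.26 FPKM under vehicle (SD, n = 3 each), and the log2 change was -0.44 (SE 0.23, 95% interval -0.99 to 0.10, limma adjusted p = 0.881). Without ZLD1039 tumour 2 the change was -0.21. SOX9 and NES were still the 2 genes without overlap when that tumour was left out, a separation that 8.68% of all loci then showed.

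TNC, the matrix glycoprotein tenascin-C (ENSG00000041982, chromosome 9, 117782806 to 117880486, minus strand), was among the most variable of the abundant genes. It had 149, 70.4 and 168 FPKM in the ZLD1039 tumours, against 205, 153 and 141 FPKM in the vehicle tumours. ZLD1039 tumour 2 had the lowest value by far, and the other ZLD1039 tumours lay within the vehicle range. The means were 129 ± 51.7 FPKM under ZLD1039 and 166 ± 34.1 FPKM under vehicle (SD, n = 3 each), and the log2 change was -0.44 (SE 0.33, 95% interval -1.21 to 0.33, limma adjusted p = 0.881). Without ZLD1039 tumour 2 it was -0.06, without ZLD1039 tumour 3 -0.68 and without vehicle tumour 1 -0.28. The other 462 loci tested on chromosome 9 also had a low median in that tumour, 0.32 on the log2 scale below the mean of the other tumours (a deviation of -0.32), where TNC had a deviation of -1.19. The part of the chromosome in the low value of TNC was not tested.

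TGFBI, a matrix protein induced by TGF-beta (ENSG00000120708, chromosome 5, 135364584 to 135399506, plus strand), had 397, 242 and 302 FPKM in the ZLD1039 tumours, against 314, 359 and 384 FPKM in the vehicle tumours. ZLD1039 tumour 1 was the highest of all 6 and ZLD1039 tumour 2 the lowest, so the vehicle group lay inside the range of the ZLD1039 group. The means were 313 ± 78.3 FPKM under ZLD1039 and 353 ± 35.7 FPKM under vehicle (SD, n = 3 each), with a log2 change of -0.19 (SE 0.22, 95% interval -0.70 to 0.31, limma adjusted p = 0.899). It was -0.02 without ZLD1039 tumour 2.

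NT5E, the surface enzyme CD73 that makes adenosine from AMP (ENSG00000135318, chromosome 6, 86159809 to 86205496, plus strand), was the steadiest of the abundant genes. It had 124, 109 and 144 FPKM in the ZLD1039 tumours, against 142, 134 and 128 FPKM in the vehicle tumours. The ZLD1039 group held both the lowest and the highest value. The log2 change was -0.11 (SE 0.17, 95% interval -0.49 to 0.28, limma adjusted p = 0.916), and -0.01 without ZLD1039 tumour 2.

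**Figure D2:**
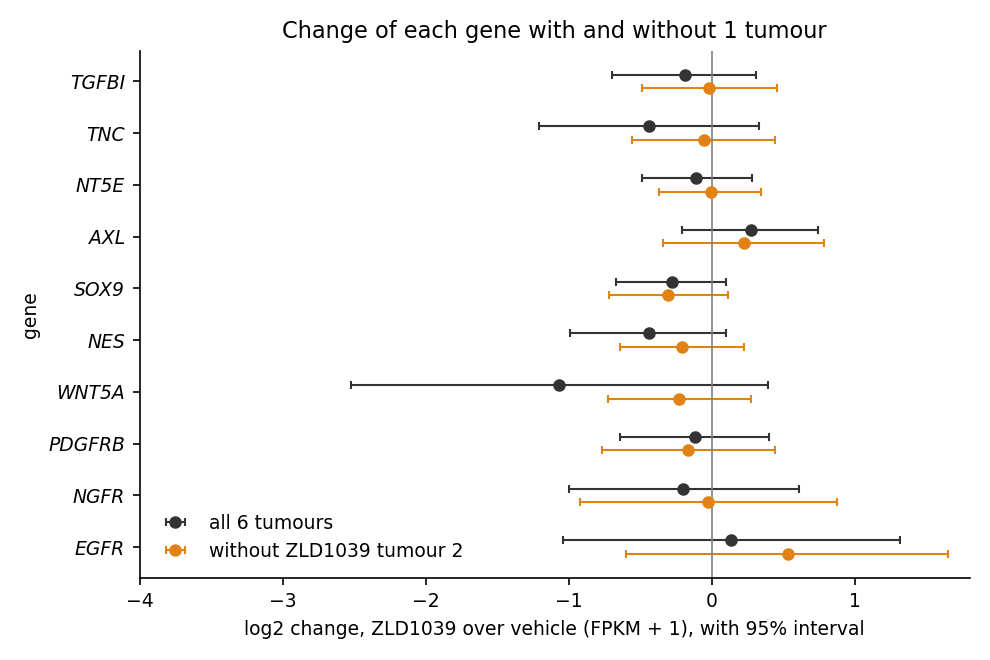
Log2 change of each gene under ZLD1039 over vehicle on the log2(FPKM + 1) scale, with 95% intervals, from all 6 tumours (dark) and without ZLD1039 tumour 2 (orange). Every interval crosses 0, and the points of WNT5A (-1.07 and -0.23) and TNC (-0.44 and -0.06) move furthest towards 0 when that tumour is left out.

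The plot of changes with and without ZLD1039 tumour 2 shows how the changes of the 10 genes move when 1 tumour is left out. Without it 8 of the 10 changes were still below 0, as were 47.1% of those of all loci, and their median was -0.04. Relative to the mean of the other 5 tumours, ZLD1039 tumour 2 deviated by -2.64 for WNT5A, -1.19 for TNC, -0.87 for EGFR, -0.82 for NES, -0.53 for both NGFR and TGFBI and -0.30 for NT5E on the log2 scale. It deviated by -0.12 for SOX9, 0.03 for PDGFRB and 0.27 for AXL. The median deviation of all loci in that tumour was 0.02, and it listed the fewest loci of the 6. The part of either in these values was not tested. ZLD1039 tumour 3 had the largest upward deviation, 1.45 for EGFR. In bulk tumours, fewer cells of a type and less RNA per cell cannot be told apart.

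**Figure D3:**
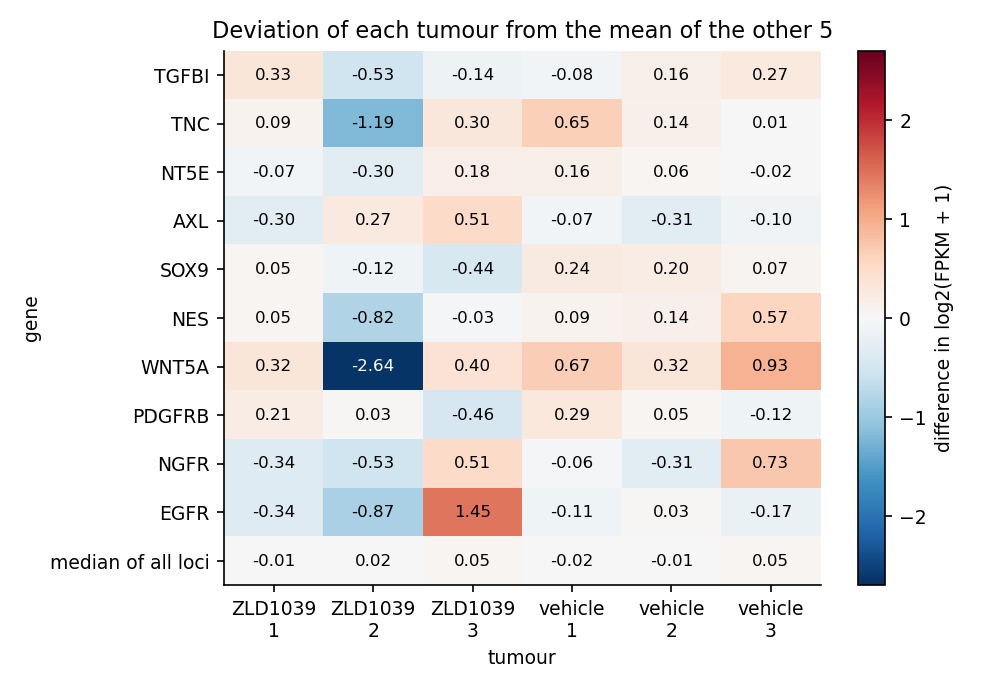
Deviation of each tumour from the mean of the other 5, in log2(FPKM + 1), for the 10 genes and, in the last row, the median of all loci tested. The column of ZLD1039 tumour 2 holds the lowest values, -2.64 for WNT5A and -1.19 for TNC, while its median over all loci is 0.02.

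Related genes were counted in the same fit. Identifiers of 23 other genes of the undifferentiated state were looked up, of which 18 were listed and 14 tested. None passed the threshold in either direction (0 higher and 0 lower by limma, 1 with an unadjusted p under 0.05), with 7 changes below 0, 7 above 0 and a median of 0.05. Of 23 ligands, co-receptors and partners of the 10 genes, 17 were listed and 13 tested, with 0 calls, 0 unadjusted p under 0.05, 6 changes below 0, 7 above 0 and a median of 0.03. The sources used here pair no gene names with those identifiers, so they are given as counts.

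Markers of other cell types were read in the same way. Of 7 pigment cell genes, 4 were listed, with summed levels of 22.9 to 50.8 FPKM in the ZLD1039 tumours and 50.8 to 72.2 FPKM in the vehicle tumours. Nearly all of that sum was carried by 1 gene, whose groups overlapped. It had 50.2, 21.8 and 21.3 FPKM in the ZLD1039 tumours, against 48.8, 56.0 and 70.0 FPKM in the vehicle tumours. Both pigment cell genes that could be tested had changes below 0 with a median of -0.67. By limma 0 passed, and 1 had an unadjusted p under 0.05. Of 7 fibroblast and pericyte genes 5 were listed, at 23.2 to 32.5 FPKM in sum under ZLD1039 and 23.8 to 29.8 FPKM under vehicle. Of these, 1 gene carried most of the sum, at 21.4 to 30.1 FPKM under ZLD1039 and 19.2 to 22.5 FPKM under vehicle, with a log2 change of 0.32. That gene was also counted among the ligands, co-receptors and partners above. The other 3 of the 4 tested had changes below 0, of -0.40, -0.79 and -0.42, and 0 of the 4 passed (limma, 0 with an unadjusted p under 0.05, median change -0.41). None of the 4 endothelial genes was listed in any tumour. Of 4 leukocyte genes 3 were listed, and 1 of them held nearly all of the signal, with 672 to 924 FPKM under ZLD1039 and 634 to 794 FPKM under vehicle. The others listed reached at most 2.19 and 0.0296 FPKM in any tumour, and 1 was never listed. The part of these cell types in the levels of PDGFRB, NES, TNC and TGFBI was not tested, and mouse reads that aligned to human positions cannot be told apart from reads of the graft.

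The transcripts of the 10 genes were then followed event by event. An event is a transcript start, a transcript end, an exon included or skipped, or an intron kept or removed, each with its own FPKM. The 10 genes had 111 listed events, of which 74 had a mean of at least 1 FPKM in a group and were tested. Of these 0 passed (limma, smallest adjusted p 0.53), against 0.0362% of all 82894 events tested, and 16 had an unadjusted p under 0.05, as 4.7% of all events did. TNC held 15 of these 16 and AXL 1, and TNC also held 33 of the 74 events tested. In 15 of the 74 every ZLD1039 tumour was below every vehicle tumour, 10 in TNC, 3 in NES and 2 in SOX9, where 4.97% of all events were so, and 0 were higher in this way, as 5.36% of all events were. Many events of a gene come from the same transcripts, and the 74 hold 57 distinct sets of values, so they are not independent.

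Several genes kept to 1 start site. SOX9, NES and NT5E each had 1 start in all tumours, and the leading start of TGFBI carried 98.8% to 99.5% of its starts. The leading start of AXL carried 97.1% to 100.0%. Of the low genes, NGFR and EGFR had 1 start where any was listed, and PDGFRB and WNT5A had more. The leading start of PDGFRB carried 86.6% in ZLD1039 tumour 2 and 100.0% in the other 5 tumours. For WNT5A the start at 55521008 carried 74.7% and 51.5% in ZLD1039 tumours 1 and 3, against 50.6%, 77.7% and 67.9% in the vehicle tumours, and the rest was spread over 4 other starts. Its groups overlapped, and the share was not tested because 1 tumour listed no WNT5A. NES kept its intron at 156643319 to 156645008 in 11.8% of transcripts in ZLD1039 tumour 1 and in none listed in the other 5 tumours. PDGFRB included an exon of 46 bases, picked out after its values were seen, in 85.1%, 100.0% and 100.0% of transcripts in the ZLD1039 tumours, against 91.9%, 76.7% and 75.4% in the vehicle tumours (limma adjusted p = 0.711).

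NT5E had 1 deviating tumour, in the vehicle group. Its exon of 150 bases (86200226 to 86200375) was included in 99.8%, 99.7% and 99.8% of transcripts in the ZLD1039 tumours, against 87.3%, 99.8% and 99.8% in the vehicle tumours. Vehicle tumour 1 alone had a sizeable skipped form, at 18.1 FPKM, and a transcript end at 86201695 of 18.1 FPKM as well. The difference of 4.16 percentage points (SE 3.81, limma adjusted p = 0.711) came from that tumour, since it was -0.02 without it. Skipping of this exon is known in human NT5E as a minor form of CD73.

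AXL was expressed in a long and a short form, which differ by a short exon that codes for part of the receptor next to the membrane. The exon, 27 bases at 41745599 to 41745625, was included at 15.7, 28.4 and 24.7 FPKM in the ZLD1039 tumours, against 19.4, 9.78 and 8.75 FPKM in the vehicle tumours. The skipped form stood at 7.74, 4.84 and 13.7 FPKM in the ZLD1039 tumours, against 7.82, 13.7 and 17.9 FPKM in the vehicle tumours. For the included form ZLD1039 tumours 2 and 3 were above all vehicle tumours, while ZLD1039 tumour 1 was below vehicle tumour 1. Inclusion was 67.0%, 85.4% and 64.4% in the ZLD1039 tumours, against 71.3%, 41.7% and 32.8% in the vehicle tumours. The included form had a log2 change of 0.85 (SE 0.35, limma adjusted p = 0.855) and the skipped form one of -0.57 (SE 0.42, limma adjusted p = 0.855). The difference in inclusion was 23.7 percentage points (SE 20.03, limma adjusted p = 0.711), and vehicle tumour 1, with the long form prevailing as in the ZLD1039 tumours, kept the groups from separating.

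**Figure D4:**
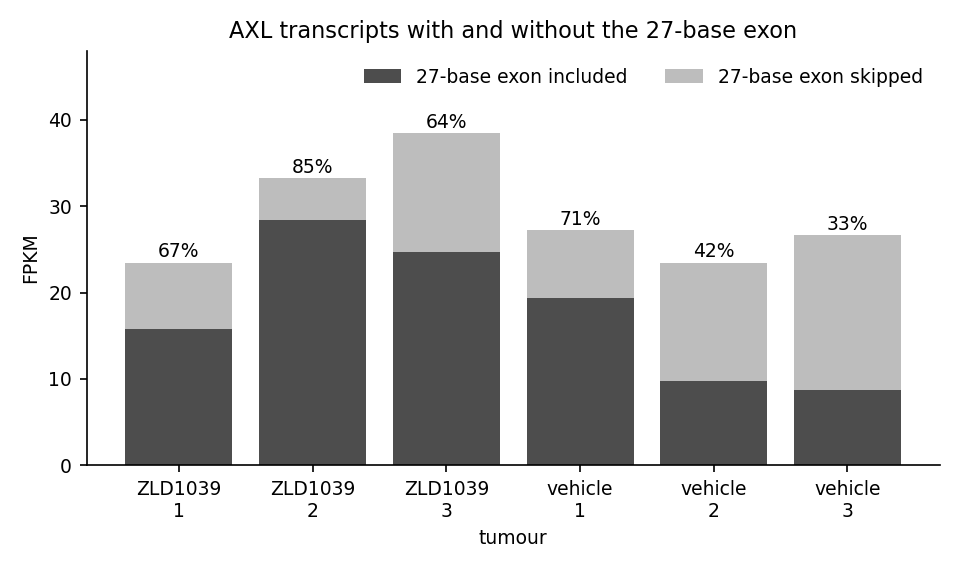
AXL abundance in FPKM in each tumour, split into transcripts with the 27-base exon (dark) and without it (light), with percent inclusion above each bar. Inclusion is 64% to 85% in the ZLD1039 tumours, and in the vehicle tumours it is 71% in tumour 1 and 42% and 33% in tumours 2 and 3.

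TNC held most of the events with an unadjusted p under 0.05, and the form of its transcripts varied from tumour to tumour. Tenascin-C has a variable stretch of fibronectin type III repeats, and long forms that include them are known from remodelling tissue and tumours. The block spanned 117808689 to 117827198 and held 8 exons, numbered here from the 5′ side, of 273 bases each except exon 6 with 276, all multiples of 3 and so able to drop out without a shift of the reading frame. Transcripts were listed by the run of block exons they joined. A transcript can fall under several runs, so the abundances of runs do not add up.

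The long run of 7 block exons, 1 to 5, 7 and 8, was at 0.401, 7.83 and 1.20 FPKM in the ZLD1039 tumours, against 30.2, 28.9 and 8.27 FPKM in the vehicle tumours. Every ZLD1039 tumour was below every vehicle tumour, with ZLD1039 tumour 2 just under vehicle tumour 3. The log2 change was -2.77 (SE 0.79, limma adjusted p = 0.855). The shorter run of exons 5, 7 and 8, joined on to the exon after the block whatever stood before exon 5, was at 0.401, 7.83 and 1.21 FPKM in the ZLD1039 tumours, against 30.2, 28.9 and 23.5 FPKM in the vehicle tumours. Here the gap between the groups was wide, and the log2 change of -3.24 (SE 0.65, limma adjusted p = 0.53) had the smallest adjusted p of all events of the 10 genes. It was between -4.01 and -2.69 when each tumour was left out in turn, with -4.01 the value without ZLD1039 tumour 2.

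Of further TNC runs, picked out after their values were seen, some separated the groups and some did not. One run held exons 5 and 8 behind exon 4, without exon 7 between them, joined on to the exon after the block. It stood at 29.2, 45.6 and 50.9 FPKM in the ZLD1039 tumours, against 98.9, 121 and 81.0 FPKM in the vehicle tumours. All ZLD1039 tumours were lower (log2 change -1.26, SE 0.26, limma adjusted p = 0.567). Exons 4, 5 and 8 joined behind exon 3 and on to the exon after the block stood lower. They were at 13.9, 12.7 and 29.9 FPKM in the ZLD1039 tumours, against 42.2, 107 and 69.7 FPKM in the vehicle tumours. The groups again did not overlap (log2 change -1.90, SE 0.44, limma adjusted p = 0.723). Exons 5 and 8 joined without exon 7, whatever stood before or after, were at 67.8, 59.3 and 105 FPKM in the ZLD1039 tumours. The vehicle tumours had 173, 121 and 118 FPKM, without overlap (log2 change -0.84, SE 0.27, limma adjusted p = 0.855). Those also joined on to the exon after the block were at 29.2, 45.6 and 105 FPKM in the ZLD1039 tumours. The vehicle tumours had 98.9, 121 and 118 FPKM, and here ZLD1039 tumour 3 lay above vehicle tumour 1 (log2 change -1.09, SE 0.44, limma adjusted p = 0.855). Exon 7 between exons 5 and 8, with or without the exon after the block, did not separate the groups either, with 0.401, 7.83 and 59.2 FPKM in the ZLD1039 tumours, against 30.2, 28.9 and 23.5 FPKM in the vehicle tumours. ZLD1039 tumour 3 was the highest of all 6 there and ZLD1039 tumours 1 and 2 the lowest. Inclusion of exon 7 itself differed little between the group means and varied within the ZLD1039 group, at 0.588%, 11.7% and 36.0% in the ZLD1039 tumours, against 14.9%, 19.3% and 16.7% in the vehicle tumours (difference -0.89 percentage points, SE 10.3, limma adjusted p = 0.993).

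Other forms of TNC differed from one ZLD1039 tumour to the next. Transcripts that skipped the whole block stood at 80.4, 2.64 and 0.125 FPKM in the ZLD1039 tumours, against 0.131, 0.183 and 0.186 FPKM in the vehicle tumours. ZLD1039 tumour 1 alone had them in bulk. The run of exons 1 to 5 joined to exon 8 without exon 7 was listed at 52.5 and 26.4 FPKM in ZLD1039 tumours 1 and 2 and was not listed in ZLD1039 tumour 3 or in any vehicle tumour. The run of exons 1, 2, 4, 5 and 7 joined to exon 8 was listed in ZLD1039 tumour 3 alone, at 58.0 FPKM. The form that prevailed thus differed among the ZLD1039 tumours. In the long run all of them lay below the vehicle tumours, ZLD1039 tumour 2 only just, and that difference did not pass the test.

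**Figure D5:**
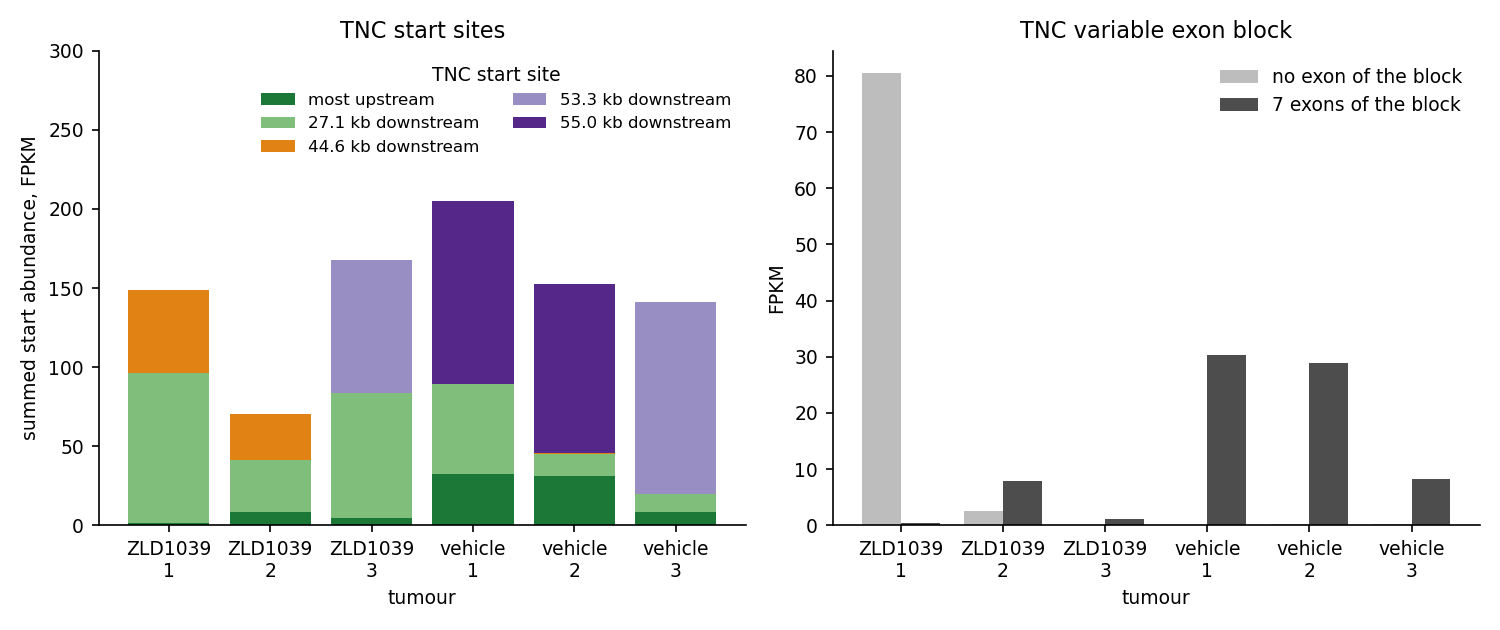
Left, TNC start abundance in FPKM in each tumour, stacked by start site, with sites named by their distance from the most upstream start. Right, FPKM of TNC transcripts that skip the whole variable block (light) and of those with 7 of its exons (dark); the run of 7 exons is at most 7.83 FPKM in the ZLD1039 tumours and at least 8.27 FPKM in the vehicle tumours, and skipping of the whole block stands out in ZLD1039 tumour 1 (80.4 FPKM).

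TNC starts also varied between tumours, as the stacked plot of start sites shows. The most upstream start stood at 1.79, 8.44 and 4.34 FPKM in the ZLD1039 tumours, against 32.4, 31.2 and 8.27 FPKM in the vehicle tumours, with ZLD1039 tumour 2 just above vehicle tumour 3. The start 27060 bases downstream stood at 94.3, 33.0 and 79.1 FPKM in the ZLD1039 tumours, against 56.8, 14.1 and 11.3 FPKM in the vehicle tumours. Its share of all TNC starts was 63.5%, 46.9% and 47.1% in the ZLD1039 tumours, against 27.7%, 9.25% and 8.02% in the vehicle tumours. Every ZLD1039 tumour was above every vehicle tumour in this share, by 37.5 percentage points on average (SE 12.7, limma adjusted p = 0.764). Of the 30 shares of the 10 genes that were tested, this was the 1 with an unadjusted p under 0.05, and 0 passed after adjustment.

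The remaining TNC starts were used by some tumours and not by others. The start 44566 bases downstream stood at 52.5 and 28.9 FPKM in ZLD1039 tumours 1 and 2, against 0.0892 FPKM in ZLD1039 tumour 3 and 0.0838 to 0.167 FPKM in the vehicle tumours. The start 53295 bases downstream was listed in ZLD1039 tumour 3 at 84.5 FPKM and in vehicle tumour 3 at 122 FPKM and in no other tumour. The start 55039 bases downstream was listed in no ZLD1039 tumour, against 116, 107 and 0.139 FPKM in the vehicle tumours. The first exons of transcripts from the last 2 of these sites lay within exons 1 and 3 of the variable block, so part of the TNC signal came from assembled transcripts that began inside the gene. Transcript ends of TNC stood at 96.1, 40.8 and 22.3 FPKM in the ZLD1039 tumours, against 87.0, 149.9 and 89.3 FPKM in the vehicle tumours. ZLD1039 tumours 2 and 3 were below all vehicle tumours and ZLD1039 tumour 1 was not. The starts summed to more than the ends in each tumour, and the form of TNC abundance chosen sets its size: by the largest event the values were 96.1, 59.3 and 105 FPKM in the ZLD1039 tumours, against 173, 149.9 and 122 FPKM in the vehicle tumours, which do not overlap, with a log2 change of -0.79.

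Across the shares of the 10 genes the counts were as follows. Of 19 exon or intron inclusion shares tested, 0 passed, as did 0.0% of all 13306, where 272 had an unadjusted p under 0.05, and 2 did not overlap between the groups, both TNC runs, where 6.93% of all did not. Of 9 start shares tested, 0 passed, as did 0.0% of all 21321, where 530 had an unadjusted p under 0.05, and 3 did not overlap, where 8.04% of all did not. These were the TNC starts at 27060 and 55039 bases and a minor AXL start with at most 2.94% of AXL starts. Of the 2 end shares tested, both of NT5E, 0 passed, as did 0.0% of all 4610, where 132 had an unadjusted p under 0.05. For both NT5E ends the groups overlapped, while 8.05% of all end shares did not overlap.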

How the data were processed

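RNA of 3 ZLD1039 and 3 vehicle tumours was compared, with groups and replicate numbers from the sample titles. The authors deposited 1 list per tumour that gives transcript events and the FPKM of each, per the file headers. HTSeq 0.6.1, bcl2fastq 2.17.1.14 and mm10, a mouse build, are named in the submitters' processing notes. The positions are those of a human genome, with the chromosome names and lengths of GRCh37 from background knowledge, and stand here as in the files. Aligner, assembler and event caller: not given in the sources used here. FPKM values are not counts, so no count model was used.

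The abundance of a locus was the largest of its summed starts, its summed ends and its largest event, and an unlisted event or locus was given 0. The tests used limma 3.58.1 (R 4.3.3) with a trend of variance on the mean, applied to log2(FPKM + 1) of every locus or event whose mean reached 1 FPKM in either group. P-values were adjusted by Benjamini and Hochberg's method over all features of a kind, with a threshold of 0.05. Shares of exons, starts and ends, in percent, were tested likewise where the mean total reached 1 FPKM, the total was above 0 in all 6 tumours and the mean share lay above 1% and below 99%. The fits were tested on simulated data. Skipped junctions were matched to included exons by start, end and flanks. Within a gene the rule named the leading start and end and at most 4 paired events with the largest difference in mean share, at a mean total of at least 5 FPKM. The 10 genes, the gene lists, the form of locus abundance and the tests were chosen with earlier results of these data known. Sequences were not used here. Data frames were handled with Python 3.11.15 and pandas 2.3.3.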

Additional observations from a re-analysis of the deposited data

How the results depend on the processing

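Of 10834 loci 2 passed, against 0 with summed starts, 1 with the largest event, 1 with a pseudocount of 0.1, 0 with no filter, 1 with median-of-ratios scaling, 1 with quantile normalization, 1 with no trend and 0 to 1 without each tumour in turn. Of 82894 events 30 passed, against 3 with no filter, 60 with no trend and 0 to 6 without each tumour. With no trend 16 inclusion shares, 11 start shares and 7 end shares passed, against 0 each with it. With the replicate number as a block 0 loci, 0 events and 0 shares passed. Over the loci tested, same-numbered tumours did not deviate together (r of -0.0316, 0.0195 and -0.0609). With 3 tumours in a group this cannot tell whether the numbers pair tumours, and the titles give only a number. For the 10 genes, 0 of 149 alternative values of abundance, 0 of 200 of their named events and 0 of 160 of their named shares passed (lowest adjusted p 0.514, 0.0648 and 0.286). The change of EGFR was -0.40 with a pseudocount of 0.1 and lay between -0.44 and 0.53 without each tumour, where that of NGFR lay between -0.46 and 0.06 and that of PDGFRB between -0.24 and 0.04. Without each tumour the changes of the other genes kept their sign, from 0.12 to 0.46 for AXL, -0.37 to -0.17 for SOX9, -0.68 to -0.06 for TNC, -1.50 to -0.23 for WNT5A, -0.21 to -0.01 for NT5E, -0.57 to -0.21 for NES and -0.38 to -0.02 for TGFBI. The included form of the NT5E exon lay between -0.14 and 0.05, its inclusion and the main NT5E end between -0.02 and 6.26 points, TNC exon 7 between -10.83 and 6.86, TNC exon 3 between -19.28 and 5.40, TNC exon 8 alone between -0.04 and 3.09, an upstream TNC exon of 104 bases between -1.0 and 34.8 and the TNC start at 53295 bases between -28.64 and 16.8. The causes were not tested. The change of WNT5A was -2.13 with a pseudocount of 0.1. EGFR was not tested where 3 tumours had to reach 1 FPKM. A tumour group of 3 and an unknown depth limit all of these values.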
